A study of Mus musculus with 6 samples.

Results

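The genes described here are 30 genes of cholesterol and fatty acid synthesis, their SREBP regulators and 1 sterol carrier, taken by gene symbol from a table of 56747 mouse genes. Each symbol matched 1 row, and all 30 genes passed the filter on low counts that left 17557 genes for testing. They were measured by RNA-seq in whole kidney of male wild-type C57BL/6J mice, 3 libraries per group. The tacrolimus group was given the drug by mouth at 1 mg/kg/day over 1 day, and the saline group oral saline, before 30 min of renal ischemia and 24 h of reperfusion. The series title names another drug, zafirlukast, while the labels and design text of these libraries name tacrolimus, which is followed here. The design text gives the saline, while the treatment label of those libraries reads none. Tacrolimus is an immunosuppressant that inhibits the phosphatase calcineurin through its binding protein. All 6 kidneys were injured, so no value describes an uninjured kidney. The submitters word the ischemia as partial and bilateral for saline and as an occlusion of the arteries of both kidneys for tacrolimus, and an effect of surgery and of drug cannot be told apart. The design names 6 animals per group, and no label ties a library to an animal.

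Cells make cholesterol from acetyl-CoA through mevalonate, squalene and lanosterol, and fatty acids through malonyl-CoA. Both routes are controlled by the transcription factors SREBP-1 and SREBP-2, which are made as precursors in the endoplasmic reticulum membrane. When membrane sterol is low, the escort protein SCAP carries the precursor to the Golgi, where it is cut and released to the nucleus. When sterol is high, INSIG proteins hold SCAP back. The sterol enzymes are mainly targets of SREBP-2 and the fatty acid enzymes mainly of SREBP-1c, whose gene is also induced by oxysterol-activated LXR. The kidney makes both kinds of lipid, and its proximal tubule runs chiefly on the oxidation of fatty acids.

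Promoter windows of 250 bases before to 50 after the annotated start were taken from RefSeq on GRCm38.p6, a build other than that of the counts. Of the 30 genes 24 had an entry, and Fdft1, Fdps, Scd1, Scd2, Sqle and Stard4 had none. The windows were searched on both strands for TCACNCCAC, the core of a sterol regulatory element, for CCAAT, the motif of the cofactor NF-Y, for GGGCGG, an Sp1 motif, and for the E-box CACGTG. The sterol element letters were found in 1 of the 24 genes, Hmgcs1, against 1.44% of all 27025 genes with an entry. CCAAT was found in 20 of the 24 genes, or 83.3%, against 41.1% of all genes. GGGCGG was likewise found in 20 genes, against 38.2% of all genes, and CACGTG in 5 genes, or 20.8%, against 8.09% of all genes. A gene counted if any of its windows held the letters, and the 24 genes had 32 windows, against 32851 for the 27025 genes. The comparison was not limited to expressed genes, whereas all members were expressed. A match is a description of these letters and not a binding site, and its relation to the levels across libraries was not tested. The 4 windows below are that of Hmgcs1 and those of the sterol pathway genes with an entry and the smallest unadjusted p. Capitals mark TCACNCCAC and CCAAT, or ATTGG where CCAAT lies on the other strand. The windows lie at chr13:119690101-119690400, chr10:76531355-76531654, chr5:28071162-28071461 and chrX:72918271-72918570, all on the plus strand.
Hmgcs1: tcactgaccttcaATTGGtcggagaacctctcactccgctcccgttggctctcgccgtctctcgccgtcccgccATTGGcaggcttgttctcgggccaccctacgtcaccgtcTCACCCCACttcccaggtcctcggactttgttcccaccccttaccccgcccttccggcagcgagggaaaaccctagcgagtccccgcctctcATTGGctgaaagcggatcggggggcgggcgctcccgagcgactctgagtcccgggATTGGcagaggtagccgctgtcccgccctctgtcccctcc
Lss: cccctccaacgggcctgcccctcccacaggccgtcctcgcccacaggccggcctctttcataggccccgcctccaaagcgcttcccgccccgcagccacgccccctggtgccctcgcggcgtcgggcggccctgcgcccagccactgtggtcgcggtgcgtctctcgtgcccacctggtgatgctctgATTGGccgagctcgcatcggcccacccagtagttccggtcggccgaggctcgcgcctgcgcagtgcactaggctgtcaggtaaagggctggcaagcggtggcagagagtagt
Insig1: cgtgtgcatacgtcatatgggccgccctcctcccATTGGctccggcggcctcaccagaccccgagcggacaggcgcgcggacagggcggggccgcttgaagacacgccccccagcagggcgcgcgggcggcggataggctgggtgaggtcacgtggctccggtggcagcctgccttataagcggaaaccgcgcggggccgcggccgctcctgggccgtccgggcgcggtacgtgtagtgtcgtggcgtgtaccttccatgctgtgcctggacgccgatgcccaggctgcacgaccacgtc
Nsdhl: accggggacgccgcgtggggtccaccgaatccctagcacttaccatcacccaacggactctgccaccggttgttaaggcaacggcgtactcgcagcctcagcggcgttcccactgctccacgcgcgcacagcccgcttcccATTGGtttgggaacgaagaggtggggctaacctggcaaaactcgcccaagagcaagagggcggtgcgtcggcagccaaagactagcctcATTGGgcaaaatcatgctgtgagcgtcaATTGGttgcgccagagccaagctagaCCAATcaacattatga

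In Hmgcs1 the sterol element letters begin at base 114 of the window, between ATTGG matches at bases 75 and 206. Lss and Insig1 each hold 1 ATTGG, at base 189 and at base 35 of their windows. The Nsdhl window holds ATTGG at bases 142, 231 and 259 and CCAAT at base 285. In these 4 windows no match to a searched motif overlapped another.

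Levels below are CPM (read counts scaled to a common library size, with TMM factors), given for replicates 1 to 3 of each group. Library totals ranged from 38443534 to 44476844 counts, so 1 CPM stands for at least 38.4 counts. Of the 30 genes, 27 had a positive fold change with tacrolimus over saline, with a median log2 fold change of 0.31, against 8658 positive of 17557 genes and a median of -0.01 over all genes tested. No member passed an adjusted p of 0.05 (edgeR quasi-likelihood test, adjusted p from 0.392 to 0.995), and of all genes 0.0114% did. At an unadjusted p under 0.05 in the same test, 2 members were higher (Lss and Insig1) and 1 was lower (Elovl6), against 4.94% of all genes higher and 7.72% lower. DESeq2 also called 0 members, against 1.96% of all genes. The groups did not overlap in 2 of 30 members, Fdft1 and Tm7sf2, both higher with tacrolimus. Of all genes 10.7% were apart in that direction and 11.0% in the other, where no member was.

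The members shared an order of libraries more often than they separated the groups. Saline replicate 1 lay inside the range of the tacrolimus libraries in 26 of the 30 members, against 49.2% of all genes tested. Saline replicates 2 and 3 were both below every tacrolimus library in 15 members, against 26.5% of all genes, and both above in 2, Hsd17b7 and Elovl6, against 25.7%. Within the tacrolimus group, replicate 1 was the lowest library in 25 members, against 36.0% of all genes, and replicate 3 the highest in 22, against 32.5%. Among all libraries, saline replicate 3 was the lowest in 16 members, against 29.4% of all genes. Genes vary together, so these shares describe the libraries and carry no test. On the first principal component, which held 54.1% of the variance over all tested genes, saline replicate 1 also stood beside the tacrolimus libraries, at -27.3 against -45.1 to -37.5 with tacrolimus and 57.4 and 91.3 in saline replicates 2 and 3.

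**Figure D1:**
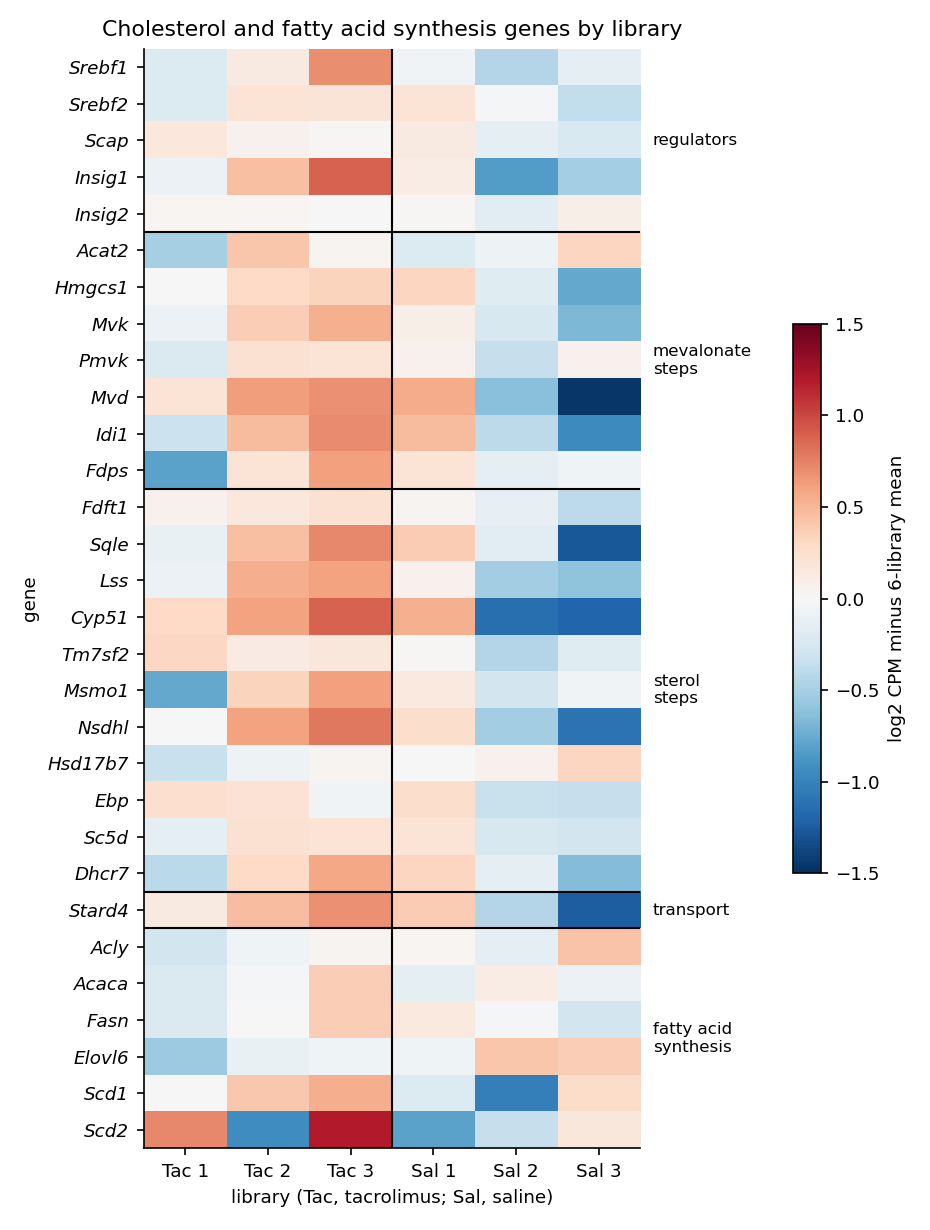
Each row is a gene and each column a library (Tac, tacrolimus; Sal, saline), and color gives log2 CPM minus the gene's mean over the 6 libraries. Most mevalonate and sterol genes are red in tacrolimus replicates 2 and 3 and saline replicate 1 and blue in saline replicates 2 and 3, whereas the fatty acid genes share no such split between saline replicate 1 and saline replicates 2 and 3.

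Among the regulators, Insig1 differed the most. Insig1, an SREBP target that retains SCAP and so closes a feedback loop, had 32.3, 47.1 and 63.4 CPM with tacrolimus, against 37.2, 19.2 and 24.1 CPM with saline. Saline replicate 1 was above tacrolimus replicate 1, and the other saline libraries were below all tacrolimus libraries. The log2 fold change was 0.83 ± 0.32 (SE; adjusted p = 0.393, edgeR; n = 3 each). Insig1 lies at 28276361 to 28283660 on chromosome 5 of GRCm39. Its paralog Insig2, which is not under the same sterol feedback, had 40.3, 40.4 and 39.8 CPM with tacrolimus, against 40.2, 35.2 and 42.0 CPM with saline. Insig2 thus spread least of the regulators, with a log2 fold change of 0.04.

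The genes of the transcription factors and of SCAP differed less than Insig1. Srebf1, which encodes both SREBP-1 isoforms, had 27.8, 35.4 and 52.1 CPM with tacrolimus, against 31.0, 23.7 and 29.2 CPM with saline. Its 2 highest values were tacrolimus replicates 2 and 3, and the groups overlapped. Srebf2, the gene of SREBP-2, had 75.3, 101 and 99.3 CPM with tacrolimus, against 100.2, 85.7 and 67.6 CPM with saline. Scap had 94.0, 88.0 and 85.4 CPM with tacrolimus, against 92.8, 76.2 and 72.0 CPM with saline. For Srebf2 the groups overlapped widely, and for Scap only saline replicate 1 lay within the tacrolimus range. The log2 fold changes were 0.46 for Srebf1, 0.12 for Srebf2 and 0.15 for Scap, and Srebf1 stood at 0.17 without tacrolimus replicate 3. Srebf1 overlaps the gene model of Rai1 on the opposite strand, and without known strand use their reads cannot be told apart.

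The 7 genes that lead from acetyl-CoA to farnesyl diphosphate all had fold changes at or above 0 on the log2 scale, with a median of 0.36. Acat2, the cytosolic thiolase that joins the first acetyl units, had 45.1, 85.3 and 65.8 CPM with tacrolimus, against 55.5, 60.5 and 79.6 CPM with saline. The groups overlapped fully and the means, 65.4 ± 20.1 and 65.2 ± 12.7 CPM (SD, n = 3 each), were close. Hmgcs1, the cytosolic HMG-CoA synthase, had 453, 559 and 571 CPM with tacrolimus, against 565, 399 and 266 CPM with saline. Its value in saline replicate 1 was between those of tacrolimus replicates 2 and 3, and saline replicate 3 was the lowest library.

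The mevalonate kinases and the decarboxylase follow in the route. Mvk, mevalonate kinase, had 7.94, 11.0 and 12.3 CPM with tacrolimus, against 9.0, 7.13 and 5.30 CPM with saline. Saline replicates 2 and 3 were below every tacrolimus library, and the log2 fold change was 0.54 ± 0.26 (SE; adjusted p = 0.409, edgeR; n = 3 each). Pmvk, phosphomevalonate kinase, had 9.45, 12.9 and 12.7 CPM with tacrolimus, against 11.6, 8.71 and 11.5 CPM with saline, with 2 saline libraries inside the tacrolimus range. Mvd, the decarboxylase that yields isopentenyl diphosphate, had 30.0, 40.0 and 41.9 CPM with tacrolimus, against 38.1, 16.7 and 9.40 CPM with saline. Saline replicates 2 and 3 stood far below the other 4 libraries. For Mvd the log2 fold change was 0.80 ± 0.48 (SE; adjusted p = 0.440, edgeR), and 1.52 ± 0.29 without saline replicate 1 (adjusted p = 0.0257, edgeR; n = 3 and 2). Without saline replicate 3 it was 0.44. Mvk lies at 114582330 to 114598652 on chromosome 5 and Mvd at 123160340 to 123170161 on chromosome 8.

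The last mevalonate genes had a low value in tacrolimus replicate 1. Idi1, isopentenyl diphosphate isomerase, had 31.6, 54.5 and 64.4 CPM with tacrolimus, against 54.9, 30.1 and 20.4 CPM with saline. Tacrolimus replicate 1 was next to saline replicate 2. The table also holds 5 processed pseudogenes of Idi1, the largest with 987 counts over all libraries against 10675 for Idi1, and reads they share make its count uncertain. Fdps, farnesyl diphosphate synthase, had 10.8, 21.8 and 28.9 CPM with tacrolimus, against 21.9, 17.2 and 18 CPM with saline. The lowest and the highest library of Fdps were both in the tacrolimus group, whose SD of 9.12 CPM compared with 2.49 CPM for saline.

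From squalene to cholesterol, 10 of 11 genes had a positive fold change, with a median log2 fold change of 0.32. Fdft1, squalene synthase, had 25.6, 27.2 and 28.5 CPM with tacrolimus, against 24.9, 22.3 and 18.6 CPM with saline. Every tacrolimus library was above every saline library, the nearest pair by less than 1 CPM. The log2 fold change was 0.31 ± 0.14 (SE; adjusted p = 0.404, edgeR; n = 3 each). Fdft1 (chromosome 14, 63382599 to 63417027) overlaps the model of Ctsb on the opposite strand, which held 195746 counts over all libraries against 6125 for Fdft1, so its count depends on how shared reads were assigned. Sqle, squalene epoxidase, had 76.9, 114 and 137 CPM with tacrolimus, against 108, 73.9 and 34.5 CPM with saline. Saline replicate 1 of Sqle was inside the tacrolimus range and saline replicate 3 was the lowest library.

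Lss and Cyp51, which close and then demethylate the sterol ring system, had the smallest unadjusted p and the largest fold change of the 30. Lss, lanosterol synthase, had 21.2, 32.9 and 34.4 CPM with tacrolimus, against 23.9, 15.8 and 14.9 CPM with saline. Tacrolimus replicate 1 was below saline replicate 1 and above the other saline libraries. On the log2 scale Lss differed by 0.70 ± 0.26 (SE; adjusted p = 0.392, edgeR), and 0.94 ± 0.23 without saline replicate 1 (adjusted p = 0.0489, edgeR; n = 3 and 2). Cyp51, lanosterol demethylase, had 122, 151 and 184 CPM with tacrolimus, against 143, 45.5 and 43.5 CPM with saline. Saline replicate 1 sat inside the tacrolimus range and far above the other saline libraries. On the log2 scale Cyp51 differed by 0.98 ± 0.48 (SE; adjusted p = 0.411, edgeR), and 1.78 ± 0.19 without saline replicate 1 (adjusted p = 0.00694, edgeR). Lss lies at 76367422 to 76392972 on chromosome 10, and Cyp51, which overlaps Akap9 on the opposite strand, at 4131145 to 4154746 on chromosome 5. Akap9 held 22029 counts over all libraries against 28896 for Cyp51, so the count of Cyp51 depends on how shared reads were assigned.

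The reductases and the demethylation enzymes that follow were less alike. Tm7sf2, a sterol reductase, had 9.07, 7.99 and 8.26 CPM with tacrolimus, against 7.41, 5.38 and 6.47 CPM with saline. The groups did not overlap, and the log2 fold change was 0.39 ± 0.18 (SE; adjusted p = 0.404, edgeR; n = 3 each). Tm7sf2 (chromosome 19, 6112851 to 6118403) overlaps Vps51 on the same strand, which held 4666 counts against 1861 for Tm7sf2, so its count is uncertain. Msmo1, the methyl sterol oxidase, had 24.9, 53.5 and 65.2 CPM with tacrolimus, against 47.0, 34.9 and 41.0 CPM with saline. All saline values of Msmo1 lay inside the wide tacrolimus range. Nsdhl, the sterol dehydrogenase that acts with it, had 46.2, 70.8 and 80.4 CPM with tacrolimus, against 56.0, 32.4 and 21.5 CPM with saline. Saline replicates 2 and 3 of Nsdhl were below every tacrolimus library. For Nsdhl the log2 fold change was 0.85 ± 0.37 (SE; adjusted p = 0.401, edgeR), and 1.29 ± 0.30 without saline replicate 1 (adjusted p = 0.0412, edgeR). Nsdhl lies at 71962163 to 72002120 on the X chromosome.

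Hsd17b7 was the sterol step with a negative fold change. Hsd17b7, which reduces the sterol ketone after demethylation, had 32.2, 38.4 and 41.6 CPM with tacrolimus, against 40.6, 42.3 and 50.6 CPM with saline. Saline replicates 2 and 3 were above every tacrolimus library, and the log2 fold change was -0.25. Ebp, the sterol isomerase, had 67.9, 66.4 and 55.1 CPM with tacrolimus, against 68.3, 45.3 and 45.2 CPM with saline. Sc5d, the sterol desaturase, had 37.6, 48.6 and 47.3 CPM with tacrolimus, against 47.6, 35.1 and 34.3 CPM with saline. For both Ebp and Sc5d saline replicate 1 was with the tacrolimus libraries and the other saline libraries were lower. Dhcr7, a reductase of the last step, had 15.3, 25.0 and 30.4 CPM with tacrolimus, against 25.4, 18.5 and 12.9 CPM with saline. The groups of Dhcr7 overlapped, with tacrolimus replicate 1 and saline replicate 3 the lowest.

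Stard4, a soluble carrier that moves sterol between membranes and is an SREBP-2 target, followed the sterol enzymes. It had 107, 133 and 156 CPM with tacrolimus, against 126, 71.3 and 40.8 CPM with saline. Saline replicate 1 was inside the tacrolimus range, and saline replicate 3 was the lowest library. For Stard4 the log2 fold change was 0.74 ± 0.39 (SE; adjusted p = 0.423, edgeR; n = 3 each), and 1.24 ± 0.28 without saline replicate 1 (adjusted p = 0.0414, edgeR). Without saline replicate 3 it was 0.42. The gene lies at 33332408 to 33346915 on chromosome 18.

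**Figure D2:**
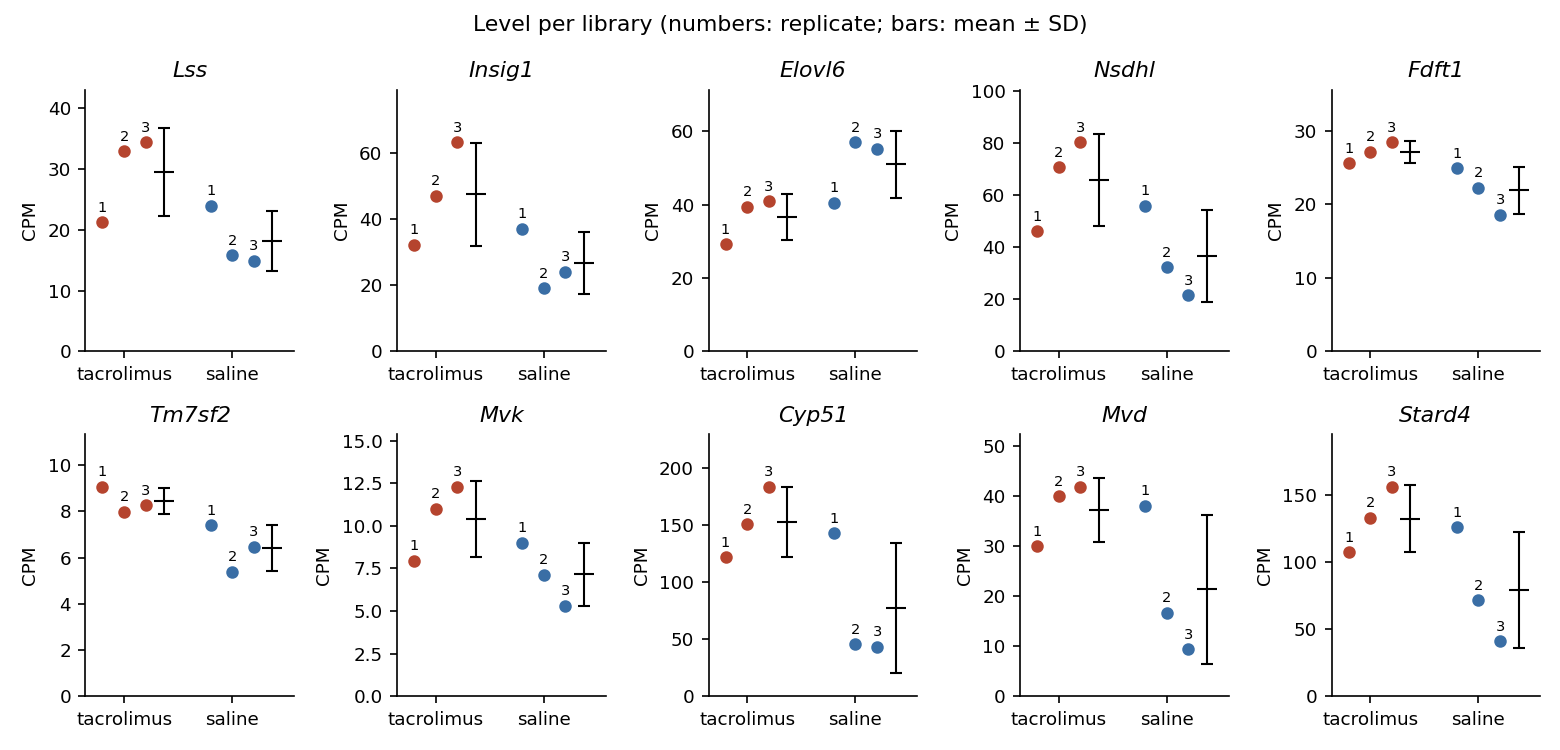
Level in CPM of the 10 genes described with full statistics, 1 point per library numbered by replicate, tacrolimus left of saline, with the mean and SD of each group as a bar. In 7 of the genes saline replicate 1 falls within the range of the tacrolimus libraries while saline replicates 2 and 3 are lower. Elovl6 has the opposite direction, and Fdft1 and Tm7sf2 keep the groups apart.

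The 6 fatty acid genes differed in direction, with a median log2 fold change of 0.11 and 4 positive and 2 negative values. Acly, ATP citrate lyase, the source of cytosolic acetyl-CoA, had 151, 175 and 189 CPM with tacrolimus, against 187, 166 and 246 CPM with saline. Acaca, acetyl-CoA carboxylase, had 23.1, 26.5 and 34.9 CPM with tacrolimus, against 24.2, 29.1 and 25.2 CPM with saline. Fasn, fatty acid synthase, had 52.5, 61.7 and 79.3 CPM with tacrolimus, against 67.9, 60.4 and 50.6 CPM with saline. The groups overlapped in all 3 genes, with log2 fold changes of -0.22 for Acly, 0.10 for Acaca and 0.11 for Fasn. Within the tacrolimus group, replicate 3 was the highest library in each of the 6 genes and replicate 1 the lowest in 5. Saline replicates 2 and 3 were both below every tacrolimus library in 0 of the 6.

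Elovl6, which elongates palmitate, was the member with the most negative fold change. It had 29.3, 39.5 and 40.9 CPM with tacrolimus, against 40.5, 57.1 and 55.3 CPM with saline. Saline replicate 1 lay just inside the tacrolimus range, and saline replicates 2 and 3 were above it. The log2 fold change was -0.48 ± 0.19 (SE; adjusted p = 0.393, edgeR; n = 3 each), and -0.62 ± 0.17 without saline replicate 1 (adjusted p = 0.0605, edgeR). Elovl6 lies at 129326004 to 129432144 on chromosome 3. The direction of Elovl6 was thus opposite to that of most sterol enzymes in the same libraries, and shared with Hsd17b7.

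The stearoyl-CoA desaturase paralogs, which introduce the double bond of oleate, lie near each other on chromosome 19 and spread differently. Scd1 had 223, 296 and 326 CPM with tacrolimus, against 195, 109.8 and 273 CPM with saline. Saline replicate 3 of Scd1 was within the tacrolimus range and the other saline libraries were below it. Scd2 had 158, 50.4 and 219.6 CPM with tacrolimus, against 55.1, 75.1 and 108 CPM with saline. The lowest and the highest library of Scd2 were both tacrolimus libraries, and the group SD was 85.6 CPM with tacrolimus and 26.8 CPM with saline. The log2 fold changes were 0.55 for Scd1 and 0.84 for Scd2, with SEs of 0.33 and 0.52.

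Without saline replicate 1, the test called 5 of the 30 members higher (Cyp51, Mvd, Nsdhl, Stard4 and Lss) and 0 lower, against 7.85% of all 18081 genes called higher and 6.16% called lower. The median log2 fold change of the members was then 0.50, against 0.31 with all libraries, and 26 of 30 were positive. Of the 5 members called, 4 are enzymes of the mevalonate and sterol steps, a group of 18 genes with a median log2 fold change of 0.55 without that library and 0.34 with it. Among the fatty acid genes 0 were called without it by edgeR, and their median was 0.14. Because this library resembled the tacrolimus ones, its removal widens the contrast, and it leaves 2 saline libraries.

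**Figure D3:**
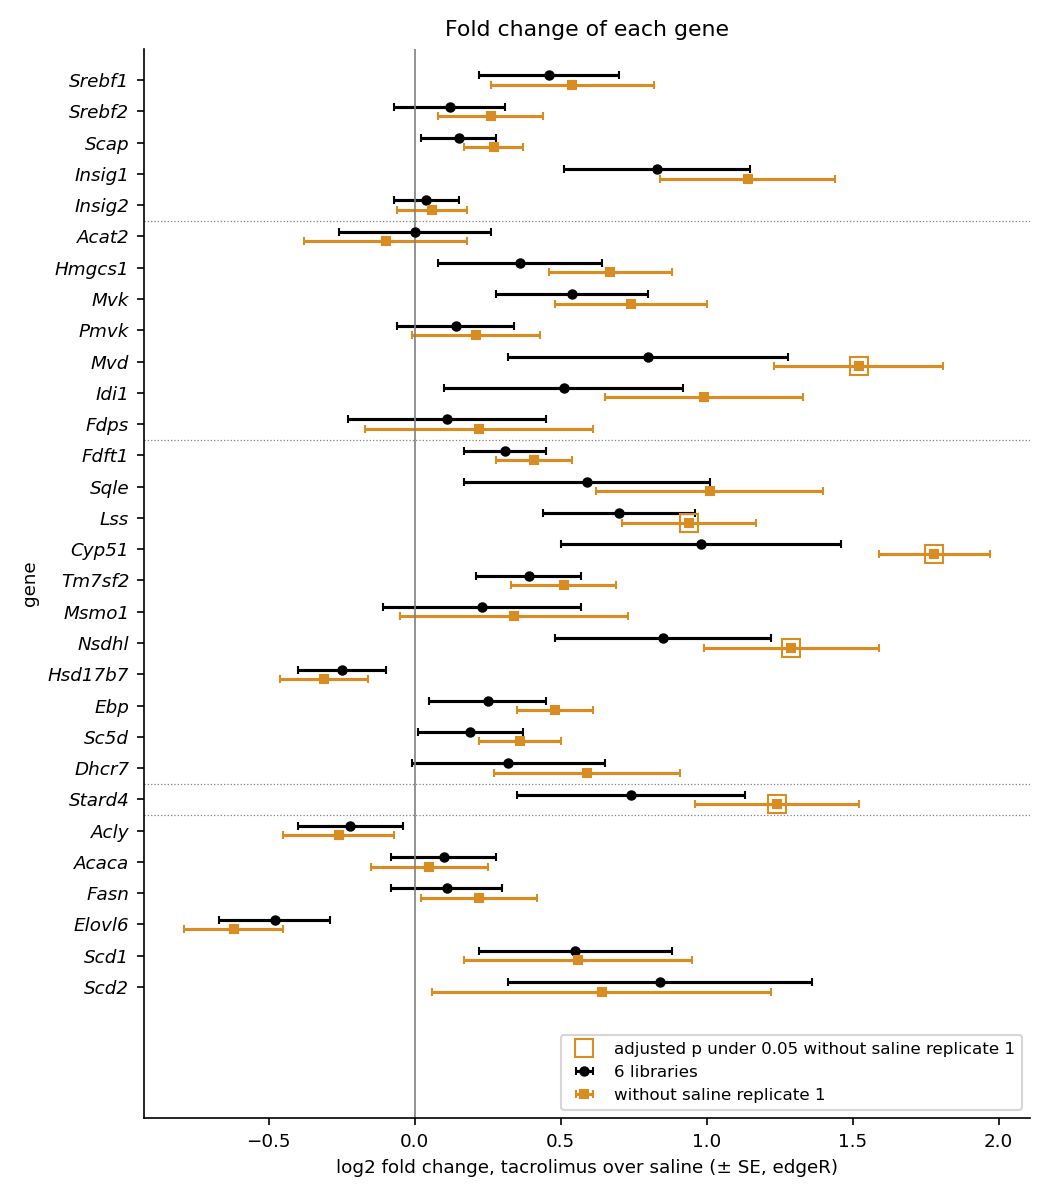
Log2 fold change of tacrolimus over saline with its SE (edgeR) for each of the 30 genes, with all 6 libraries (black circles) and without saline replicate 1 (orange squares, boxed where the adjusted p was under 0.05). Most sterol pathway values lie right of 0 and move further right without that library, with Cyp51 at 1.78 without it and 0.98 with it, while Elovl6, Hsd17b7 and Acly lie left of 0 in both.

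The summed level of the 18 mevalonate and sterol genes was 1067, 1420.3 and 1509 CPM with tacrolimus, against 1348, 911 and 734 CPM with saline. The sum in saline replicate 1 was above that in tacrolimus replicate 1. The median gene of these 18 stood at -0.10, 0.32 and 0.56 with tacrolimus, against 0.21, -0.26 and -0.49 with saline, as log2 CPM minus the 6-library mean. For the 6 fatty acid genes the same median was -0.22, -0.05 and 0.37 with tacrolimus, against -0.11, -0.08 and 0.23 with saline. The medians over all genes tested were between 0.00 and 0.02 in every library.

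Compared per gene length, in the deposited FPKM values, Hmgcs1 was the most abundant of the 30 with a mean of 102 FPKM over 6 libraries. Scd1 followed with 48.5 FPKM, Acly with 35.2 and Cyp51 with 26.1. At the low end were Acaca with 1.59 FPKM, Tm7sf2 with 1.69 and Lss with 2.21. For most genes the length behind these values is longer than the listed one, so the order of close genes such as these is uncertain. The SREBP genes lay between, at 12.3 FPKM for Srebf2 and 5.90 FPKM for Srebf1. Many neighbors in this order do not differ beyond their spread: Cyp51, Acat2 and Ebp had means of 26.1, 25.7 and 25.1 FPKM, and Cyp51 alone had SDs of 7.13 FPKM with tacrolimus and 13.0 FPKM with saline.

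Other genes of the pathway were read from 4 further lists. Of 12 genes of SREBP processing and sterol uptake, 6 had positive and 6 negative fold changes, with a median log2 fold change of -0.01 and 0 called by edgeR, by DESeq2 or without saline replicate 1. The smallest unadjusted p values were those of Scarb1, a receptor for high-density lipoprotein, and Nfyc, a subunit of NF-Y. Scarb1 had 14.0, 17.2 and 17.7 CPM with tacrolimus, against 17.5, 20.6 and 20.9 CPM with saline. Nfyc had 44.9, 46.4 and 39.6 CPM with tacrolimus, against 43.8, 32.8 and 30.7 CPM with saline. In neither were the groups apart. Of the 12 genes, 2 were apart with tacrolimus lower (Lrp10 and Npc1) and 0 with tacrolimus higher, against 11.0% and 10.7% of all genes.

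Of 12 genes of LXR and cholesterol efflux, 10 had positive fold changes and the median was 0.45 on the log2 scale. By edgeR 0 of them were called with all libraries, 3 were higher at an unadjusted p under 0.05, against 4.94% of all genes. DESeq2 called 1, Cyp7b1 (adjusted p = 0.0493, DESeq2), against 1.96% of all genes. Cyp7b1, an oxysterol hydroxylase, had 156, 71.6 and 81.4 CPM with tacrolimus, against 50.6, 17.9 and 43.1 CPM with saline. The groups of Cyp7b1 did not overlap, and the log2 fold change was 1.47 ± 0.46 (SE; adjusted p = 0.392, edgeR; n = 3 each). Mylip, an LXR target that promotes the breakdown of lipoprotein receptors, had 49.4, 55.3 and 62.0 CPM with tacrolimus, against 40.7, 31.1 and 39.7 CPM with saline. Its groups did not overlap either, and its fold change on the log2 scale was 0.58 ± 0.15 (SE; adjusted p = 0.392 in edgeR, and 0.0494 without saline replicate 1). Of the 12 genes, 5 kept the groups apart with tacrolimus higher, to be read against the 10.7% of all genes, and without saline replicate 1 edgeR called 3 higher and 1 lower, against 7.85% and 6.16% of all genes.

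The further fatty acid genes (16, for example of elongation, desaturation and acetate use) had 10 positive and 6 negative fold changes and a median log2 fold change of 0.10. Acss2, which makes acetyl-CoA from acetate, had 264, 259 and 256 CPM with tacrolimus, against 239, 111 and 65.6 CPM with saline. Mlx, a partner of the glucose-sensing factor ChREBP, had 33.2, 48.9 and 35.6 CPM with tacrolimus, against 31.0, 27.1 and 31.8 CPM with saline. Both genes kept the groups apart. Over the 16 genes, 3 were apart with tacrolimus higher and 1 with tacrolimus lower, against 10.7% and 11.0% of all genes. Of the 16, 0 were called by edgeR or DESeq2 and 0 had an unadjusted p under 0.05 in edgeR, while edgeR called 2 higher without saline replicate 1, against 7.85% of all genes. Of 10 genes of the isoprenoid branches, 6 had positive fold changes, with a median of 0.09 and 0 called by edgeR or DESeq2. At an unadjusted p under 0.05 in edgeR, 1 was higher and 1 lower, against 4.94% and 7.72% of all genes. Nus1, a subunit of the enzyme for dolichol synthesis, had 436, 544 and 534 CPM with tacrolimus, against 430, 329 and 238 CPM with saline. Fntb, the beta subunit of farnesyltransferase, had 7.66, 7.96 and 7.27 CPM with tacrolimus, against 9.37, 13.7 and 19.3 CPM with saline. The groups of Nus1 and Fntb were apart, in opposite directions, the only 2 of the 10 genes to be so, against 10.7% and 11.0% of all genes. Without saline replicate 1 edgeR called Nus1 higher (adjusted p = 0.0385) and Fntb lower (adjusted p = 0.0188), against 7.85% and 6.16% of all genes.

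Markers of cell types and of injury moved across the same libraries, and their part in the sterol values was not tested. In bulk tissue, fewer cells of a type and less RNA per cell cannot be told apart. The 9 tubular injury genes, all tested, summed to 2633, 3508 and 7783 CPM with tacrolimus, against 7873, 31325 and 30977 CPM with saline. The 10 proximal tubule genes, all tested, summed to 9607, 9834 and 9751 CPM with tacrolimus, against 8413, 3989 and 2739 CPM with saline. Both lists placed saline replicate 1 near the tacrolimus libraries. Havcr1, the injury marker KIM-1, had 14.9, 57.6 and 118 CPM with tacrolimus, against 267, 1597 and 1080.1 CPM with saline. Lcn2, a secreted iron-binding protein of injured tubules, had 47.4, 31.4 and 72.2 CPM with tacrolimus, against 77.0, 517 and 2599 CPM with saline. Lrp2, the endocytic receptor megalin of the proximal tubule, had 1944, 2087 and 1919 CPM with tacrolimus, against 1848, 854 and 318 CPM with saline. Within the tacrolimus group the injury sum and the mevalonate and sterol sum were both lowest in replicate 1 and both highest in replicate 3. Most of that injury sum was Spp1, at 2208, 2963 and 6952 CPM with tacrolimus. The median injury gene had the same order (-1.66, -1.38 and -0.55 as log2 CPM minus the 6-library mean), but Lcn2 and Krt8 were lowest in replicate 2. With saline, Vcam1 ran against the other injury genes, at 24.0, 16.8 and 6.28 CPM.

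Fat and adrenal tissue, both rich in lipid synthesis, were checked with their own markers. Of 8 white adipocyte genes 4 were tested, and the list summed to 105, 114 and 143 CPM with tacrolimus, against 95.0, 48.8 and 94.4 CPM with saline. Most of that sum came from Fabp4, a fatty acid binding protein, and Car3, a carbonic anhydrase, which with Cidec were named after their values were seen. Fabp4 had 73.7, 55.0 and 67.9 CPM with tacrolimus, against 63.3, 32.6 and 75.9 CPM with saline. Car3 had 29.7, 57.5 and 73.6 CPM with tacrolimus, against 29.1, 4.16 and 1.93 CPM with saline. Like most sterol genes, Car3 was lowest in saline replicates 2 and 3, and without saline replicate 1 it was higher with tacrolimus by 4.14 on the log2 scale (adjusted p = 0.0108, edgeR). Cidec, a lipid droplet protein, had 1.41, 1.28 and 1.51 CPM with tacrolimus, against 1.94, 10.5 and 15.3 CPM with saline, the opposite order. DESeq2 called Cidec lower over all 6 libraries (adjusted p = 0.00397, DESeq2) and did not call Car3 (adjusted p = 0.297, DESeq2). Adipoq, the fat hormone adiponectin, was at most 0.356 CPM and had 0 counts in 4 of 6 libraries. Plin1, a lipid droplet coat protein, had 0.0470, 0.0711 and 0 CPM with tacrolimus, against 0.290, 1.60 and 1.19 CPM with saline. It was also called lower by DESeq2 (adjusted p = 0.00268), at few counts, so 2 of the 4 tested genes were called, against 1.96% of all genes. Without saline replicate 1, the log2 fold changes were -3.20 for Cidec and -5.04 for Plin1 (adjusted p = 0.00404 and 0.0152, edgeR). In that fit 6.16% of all genes were called lower. The part of fat in the sterol values was not tested. Of 4 brown adipocyte genes 1 was tested, and their sum was 3.22 to 4.93 CPM with tacrolimus and 1.24 to 4.28 CPM with saline. Of 7 adrenal cortex genes 1 was tested, Star, a mitochondrial cholesterol carrier, at 0.987, 1.14 and 1.56 CPM with tacrolimus, against 0.920, 1.45 and 2.05 CPM with saline. Cyp11a1, which starts steroid synthesis, had 0 counts in all 6 libraries.

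The 8 macrophage genes, all tested, summed to 126 to 144 CPM with tacrolimus and 127 to 154 CPM with saline. Adgre1, the macrophage marker F4/80, had 4.25, 6.71 and 6.01 CPM with tacrolimus, against 4.82, 1.22 and 0.286 CPM with saline. The list was mixed, with 6 positive and 2 negative fold changes. Cd14 and Cd68, named after their values were seen, were the negative members and were highest in saline replicates 2 and 3. Cd14, a receptor for bacterial lipid, had 7.68, 10.0 and 7.74 CPM with tacrolimus, against 11.3, 42.5 and 86.5 CPM with saline. DESeq2 called Cd14 lower (adjusted p = 0.00542), the only 1 of the 8 genes it called, against 1.96% of all genes. Cd68, a lysosomal protein, had 7.05, 9.62 and 11.9 CPM with tacrolimus, against 12, 20.8 and 34.8 CPM with saline. Without saline replicate 1, edgeR called 2 of the 8 higher (Csf1r and Adgre1) and 2 lower (Cd14 and Cd68), against 7.85% and 6.16% of all genes.

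**Figure D4:**
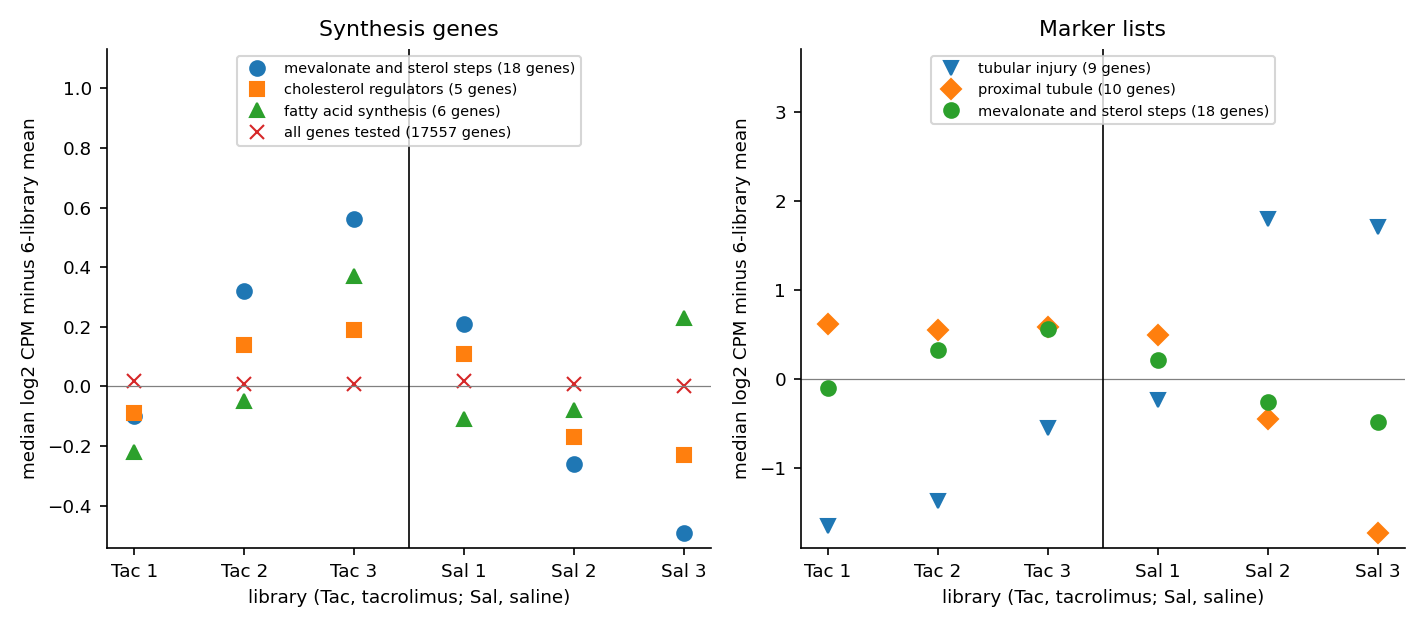
Median over each gene list of log2 CPM minus the 6-library mean, by library (Tac, tacrolimus; Sal, saline). The mevalonate and sterol median is 0.56 in tacrolimus replicate 3 and -0.49 in saline replicate 3, the fatty acid median is 0.37 and 0.23 in the same libraries, and the injury and proximal tubule lists separate saline replicates 2 and 3 from the other 4 libraries.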

How the data were processed

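RNA-seq of whole mouse kidney was analysed in 3 tacrolimus and 3 saline libraries, grouped by the sample titles. Each gene row of the deposited table holds raw counts and FPKM values for the 6 libraries, per the file headers. As deposited, the counts were whole numbers that had not been normalized, and 1 line of the table was empty. The deposited FPKM values imply a library total of 0.950 to 1.03 times the count sum. In 85.9% to 86.5% of genes above 500 counts they also imply a gene length longer than the listed one. They served only to order genes by level, and that order depends on the unlisted lengths, so it is uncertain for close genes. Coordinates are on GRCm39, which the submitters' processing notes name. The aligner, the counter and the strand setting were not given in the sources used here. RNA was extracted with TRIzol or a column kit, per the labels' protocols.

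Counts were tested with edgeR 4.0.16 in R 4.3.3: filterByExpr (minimum count 10, minimum total 15), TMM factors of 0.942 to 1.03, robust glmQLFit and two-sided glmQLFTest, with Benjamini-Hochberg adjustment over 17557 genes and a threshold of 0.05. Each SE was derived from the F statistic of the fold change, and the biological coefficient of variation was 0.304. Library deviations used log2(CPM + 0.05). Alternatives were DESeq2 1.42.0, RLE factors, no filter, the replicate number as a block, and each library left out. The code was tested on simulated data. No pair of replicates agreed within sampling noise (chi-square per degree of freedom from 47.9 to 261). No label says that libraries are separate animals, so each p-value reflects only how these libraries spread, which may be technical. The members, lists and tests were chosen with earlier results of these data known. Full statistics are given for the 8 members with the smallest unadjusted p and those called under an alternative. Of each further list, the 2 genes with the smallest unadjusted p are named.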

Additional observations from a re-analysis of the deposited data

How the results depend on the processing

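Members called by edgeR were 0 under every alternative except without saline replicate 1, where 5 were called higher. Leaving out 1 library at a time gave 0 to 5 members called higher, and 0 to 2534 genes called in all (2534 without saline replicate 1), against 2 with all 6 libraries. DESeq2 called 344 genes in all, and the fit with a replicate block called 1 gene. Library deviations had correlations of -0.0474 to -0.00946 between tacrolimus and saline libraries of the same number. Between those of different numbers the correlations were -0.127 to 0.136. Whether the numbers pair the libraries was not tested. The median log2 fold change of the members was 0.20 to 0.50 when 1 library was left out and 0.31 or 0.32 under the other alternatives. The number of members with a positive fold change was 22 to 27 over all alternatives, lowest without tacrolimus replicate 3. The sign of the small fold changes depended on single libraries. With 1 library left out, the log2 fold change ranged from -0.23 to 0.21 for Acat2, from -0.02 to 0.26 for Srebf2, from -0.03 to 0.09 for Insig2 and from -0.23 to 0.42 for Fdps. It ranged from -0.07 to 0.54 for Msmo1, from -0.09 to 0.23 for Acaca and from -0.07 to 0.24 for Fasn, and it was -0.03 for Acat2 with the replicate block. The other 23 members kept their sign under all alternatives tried. Of the 7 genes above, 5 changed sign without tacrolimus replicate 3. Several larger fold changes kept their sign but depended on 1 library: Mvd 0.44 to 1.52, Stard4 0.42 to 1.24, Hmgcs1 0.13 to 0.67 and Idi1 0.24 to 0.99, all lowest without saline replicate 3 and highest without saline replicate 1. Sqle stood at 0.26 without saline replicate 3. Srebf1 ranged from 0.17 to 0.65 and Dhcr7 from 0.08 to 0.59, both lowest without tacrolimus replicate 3, where Scd2 stood at 0.38. Scd1 ranged from 0.27 to 0.89. The cause was not tested.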
